A study of Mus musculus with 40 samples.

Results

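DARPP-32 and 7 other genes best known from the dopamine-responsive neurons of the striatum were followed through 40 RNA-seq libraries of mouse brain. They were the rows of the count table whose Ensembl identifier, with its version removed, belonged to Ppp1r1b (the gene of DARPP-32), Pde10a, Drd1, Drd2, Rgs9, Adora2a, Tac1 and Gng7, which made 8 of 56980 genes. All 8 passed the filter on low counts and were tested. Polyadenylated RNA came from female, wild type C57BL/6J mice, an inbred laboratory strain, and the sample labels name the tissue only as brain, while the title of the study names the medial prefrontal cortex. Animals entered as adolescents (from postnatal day 25) or as adults (from postnatal day 55), had plain water or antibiotics by mouth, and got subcutaneous saline or subcutaneous morphine (15 mg/kg) over 5 days. The 8 groups were therefore water with saline, antibiotics with saline, water with morphine, and antibiotics with morphine at each age, with 5 libraries in each. All groups were injected, so the plain control at each age was water with saline. The labels do not say that each library came from a separate animal, so p-values measure the spread between these libraries, which may in part be technical. Totals were 8.64 to 12.1 M counts (M for mega) per library, so that 3 counts stood for 0.25 to 0.346 CPM (counts per M counts of the library).

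In a striatal projection neuron, dopamine acts through receptors that raise or lower cyclic AMP, and cyclic AMP activates protein kinase A. DARPP-32 is a substrate of that kinase and, once phosphorylated, inhibits protein phosphatase 1. Drd1 encodes the receptor that raises cyclic AMP in the neurons that also make Tac1, the precursor of substance P, while Drd2 encodes the receptor that lowers it in the neurons that also make the adenosine receptor Adora2a. Gng7 encodes a G protein gamma subunit needed for the stimulatory G protein of these cells, Rgs9 a protein that speeds the shutdown of G protein signals, and Pde10a a phosphodiesterase that breaks down cyclic nucleotides. In the cortex, several of these genes are read in a part of the deep-layer projection neurons.

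Promoter windows of 300 bases, with 250 before and 50 after a start of transcription, were taken from RefSeq on build GRCm38.p6 for 6 of the 8 genes, in 9 windows. Ppp1r1b and Adora2a had no entry. Both windows of Pde10a are shown because Pde10a is 1 of the 2 genes whose level changed, and the window of Tac1 because it held the most kinds of motif. Sequences run 5′ to 3′ on the strand of the gene, and capitals mark matches on either strand to the motifs searched.
Pde10a, window 1, chr17:8801495-8801794, plus strand: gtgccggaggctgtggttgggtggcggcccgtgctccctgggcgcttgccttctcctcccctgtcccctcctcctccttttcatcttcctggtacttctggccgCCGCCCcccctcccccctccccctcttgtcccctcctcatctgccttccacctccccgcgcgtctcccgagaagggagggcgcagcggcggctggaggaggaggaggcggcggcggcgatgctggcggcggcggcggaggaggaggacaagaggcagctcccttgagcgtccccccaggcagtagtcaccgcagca
Pde10a, window 2, chr17:8849735-8850034, plus strand: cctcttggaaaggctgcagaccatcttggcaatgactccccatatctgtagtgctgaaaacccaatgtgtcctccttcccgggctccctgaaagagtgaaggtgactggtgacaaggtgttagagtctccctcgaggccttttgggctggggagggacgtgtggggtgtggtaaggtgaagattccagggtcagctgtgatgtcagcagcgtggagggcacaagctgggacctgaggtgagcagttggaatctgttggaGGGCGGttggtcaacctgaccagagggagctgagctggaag
Tac1, chr6:7554811-7555110, plus strand: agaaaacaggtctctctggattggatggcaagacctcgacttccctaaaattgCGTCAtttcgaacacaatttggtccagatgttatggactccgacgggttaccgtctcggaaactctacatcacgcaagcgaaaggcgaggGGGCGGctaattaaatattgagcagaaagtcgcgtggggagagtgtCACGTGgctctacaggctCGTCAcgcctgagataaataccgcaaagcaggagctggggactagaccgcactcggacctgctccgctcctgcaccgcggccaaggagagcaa

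The motifs were the cyclic AMP response element TGACGTCA, its shorter form TGACG, the GC box GGGCGG, the TATA box TATAAA and the E-box CACGTG, chosen with the data in hand. The longer element contains the shorter form. In Pde10a the capitals are GC boxes, 146 bases before the start in window 1 and 9 bases after the start in window 2. Both windows lie inside the gene as GENCODE vM21 draws it (chr17:8525372-8986648, plus strand), downstream of its outermost start, for which no window was used here. In Tac1 they are the shorter element, 197 and 43 bases before the start, a GC box 107 bases before it and an E-box 61 bases before it. Of 32851 promoter windows of this length, 35.7% held a GC box, 20.8% the shorter element, 13.6% a TATA box, 7.15% an E-box and 1.79% the full cyclic AMP element. None of the 9 windows held the full element, which says only that these letters are not in these windows.

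Per kilobase of exon, Gng7 had the highest level of the 8 genes, at a mean of 22.9 CPM per kb over the 40 libraries, followed by Ppp1r1b at 18.8. Pde10a followed at 5.4 CPM per kb, Tac1 at 3.27, Drd1 at 2.32, Rgs9 at 2.01, Adora2a at 0.947 and Drd2 at 0.388. The ranges of each pair of neighbours in this order overlapped between libraries, except those of Ppp1r1b (14.1 to 24.5 CPM per kb) and Pde10a (3.99 to 6.43). Exon lengths came from GENCODE vM21, which is another release than the one used for counting. Drd2 rested on 3 to 21 counts in a library and Adora2a on 15 to 48, against 378 to 702 for Ppp1r1b and 605 to 1063 for Gng7. Within groups the coefficient of variation was 43.2% for Drd2, where counting alone would give 32.4%, and 10.5% for Ppp1r1b, where it would give 4.34%.

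Other genes known from the striatum fell into separate ranges of level. Of 20 such markers outside the 8 genes, the transcription factor genes Isl1 and Six3 and the dopamine receptor gene Drd3 had 7, 24 and 7 counts in all 40 libraries together, and were at 0 in 33, 25 and 35 of them. Gpr6, an orphan receptor of the neurons that make Drd2, read 0.319 to 2.43 CPM. By contrast the adenylyl cyclase gene Adcy5 read 166 to 239 CPM and the phosphodiesterase gene Pde1b 113 to 149. The summed level of the 20 markers, in which Adcy5 and Pde1b have the largest part, lay between 521 and 617 CPM in all 8 groups. No striatal library was measured beside these, so the level that a given admixture of striatal tissue would produce was not tested. In bulk tissue, fewer cells of a type and less RNA per cell cannot be told apart.

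**Figure D1:**
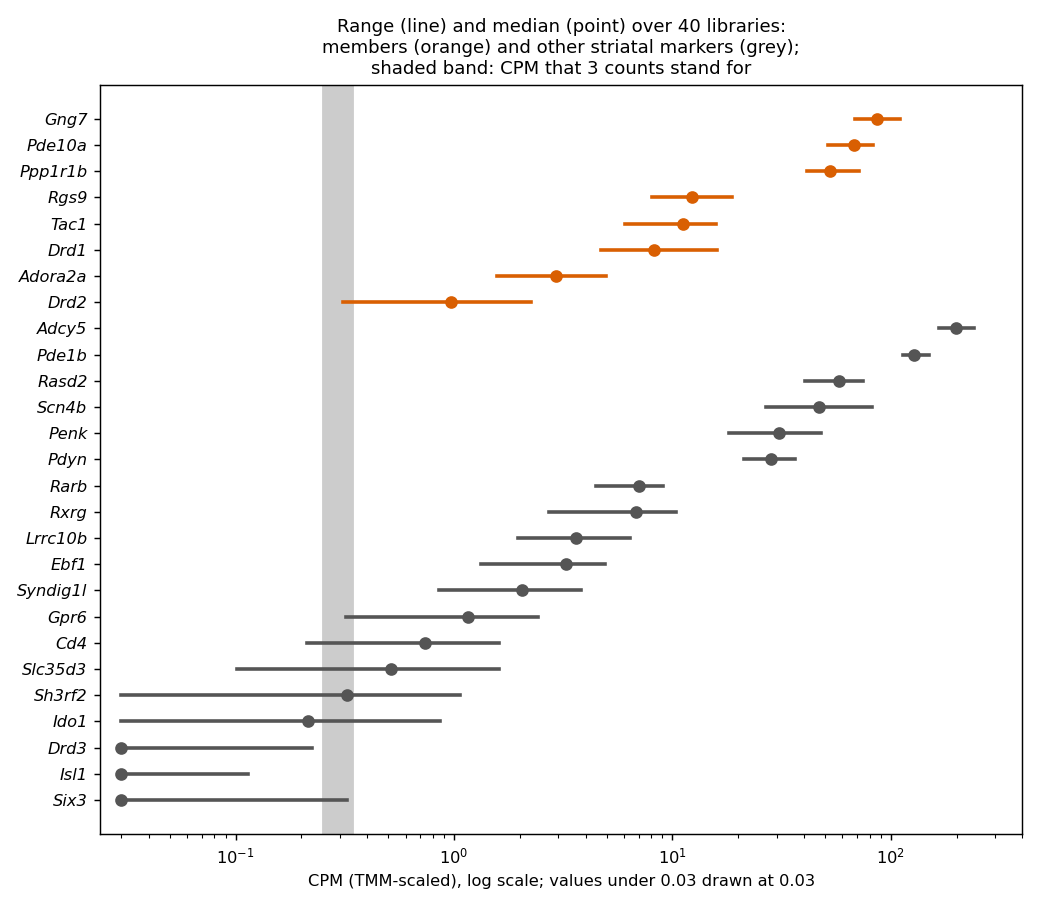
Lines give the range and points the median over 40 libraries, in TMM-scaled CPM on a log axis, for the 8 genes (orange) and 19 of the other striatal markers (grey); the shaded band is the level of 3 counts. Drd3, Isl1 and Six3 have a median of 0, drawn at 0.03, while Gng7, Pde10a and Ppp1r1b stay above 40 CPM in every library.

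DARPP-32 had its highest group mean at both ages where antibiotics were combined with morphine. In adolescents with antibiotics and morphine, Ppp1r1b (chr11:98348404-98357796, plus strand, GRCm38) read 62.6, 71.7, 67.4, 68.6 and 66.9 CPM. With water and morphine it read 48.5, 43.4, 56.3, 46.2 and 45.2 CPM, so that all 5 libraries with antibiotics lay above all 5 without. With antibiotics and saline it read 51.4, 62.7, 46.3, 52 and 62 CPM, and with water and saline 43.3, 49.6, 51, 56.8 and 41.4. The other 3 adolescent groups overlapped each other, and 1 library with antibiotics and saline, at 62.7 CPM, lay just above the lowest with both treatments.

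Among morphine-injected adolescents, Ppp1r1b rose 1.41-fold with antibiotics, from 47.9 ± 5.04 to 67.5 ± 3.28 CPM (SD, n = 5 each), a log2 fold change of 0.49 ± 0.09 (SE, 95% confidence interval 0.32 to 0.67, edgeR adjusted p = 0.000271). In this comparison 2 of the 8 genes were called, meaning an edgeR adjusted p under 0.05, where 7.56% of the 17880 genes tested were called. Among adolescents on antibiotics, Ppp1r1b rose 1.23-fold with morphine, from 54.9 ± 7.19 to 67.5 ± 3.28 CPM, a log2 fold change of 0.30 ± 0.09 (edgeR adjusted p = 0.0476), and 4 of 5 morphine libraries lay above every saline library. Here too 2 of the 8 genes were called, beside 2.92% of all genes tested. These comparisons share the 5 libraries with both treatments and are not independent. The second call was near the threshold: it held in 2 of 10 fits that each left out 1 library, at log2 fold changes of 0.25 to 0.35 and edgeR adjusted p from 0.0258 to 0.169, while the first held in 10 of 10. Calls were lost without any of antibiotics with saline replicates 1, 3 and 4, or any of the 5 libraries with both treatments.

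**Figure D2:**
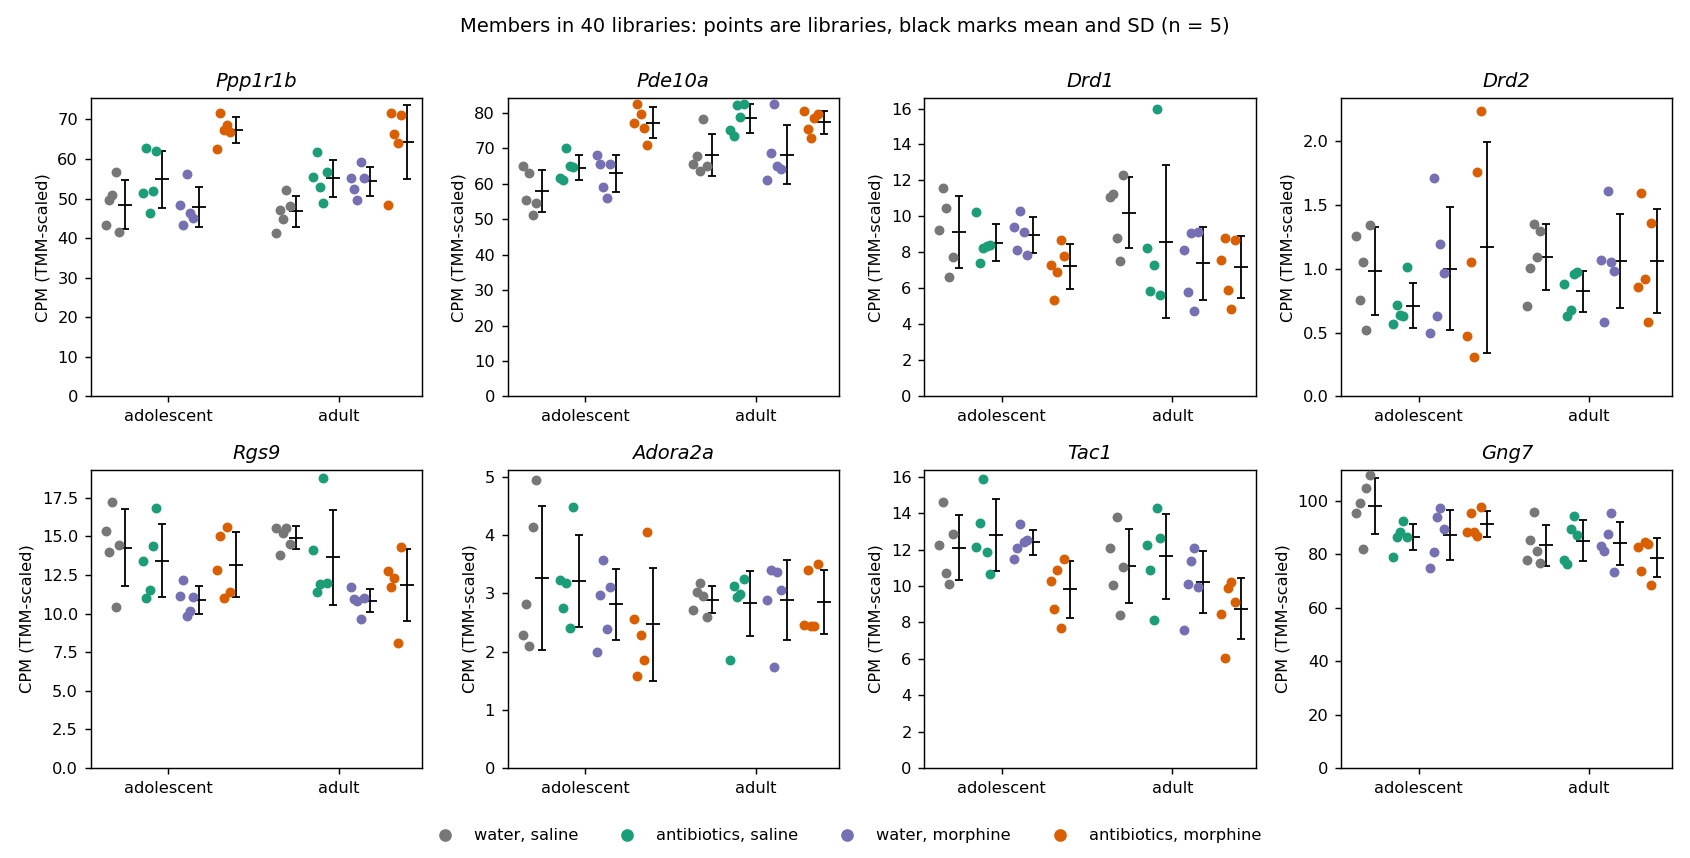
Each point is 1 library in TMM-scaled CPM, with the mean and SD of the 5 libraries of a group in black, for 8 genes in adolescents and adults. The 5 adolescent Ppp1r1b libraries with antibiotics and morphine sit between 62.6 and 71.7 CPM, above the 43.4 to 56.3 of water with morphine.

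Antibiotics with saline and morphine on water each left Ppp1r1b in adolescents without a call. The log2 fold change was 0.18 (95% confidence interval 0.00 to 0.36, edgeR adjusted p = 0.51) for antibiotics and -0.02 (-0.20 to 0.16, edgeR adjusted p = 0.952) for morphine. In these comparisons edgeR called 0 of the 8 genes, where it called 0.0391% and 0.319% of all genes. At an unadjusted edgeR p under 0.05 there were 3 and 2 of the 8, beside 1744 and 2398 of the 17880 genes tested. The test of whether the effect of antibiotics differed between morphine and saline gave a log2 difference of 0.31 ± 0.13 for Ppp1r1b (edgeR adjusted p = 0.186), so that a difference was not shown. That interaction called 0 of the 8 genes, where 1.24% of all genes were called. It had 3 of the 8 at an unadjusted edgeR p under 0.05, beside 3025 of 17880 genes.

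Pde10a (chr17:8525372-8986648, plus strand, GRCm38), whose windows are printed above, rose in the same comparisons of adolescents. It read 77.2, 82.6, 79.8, 75.8 and 71 CPM with antibiotics and morphine. It read 68.1, 65.7, 59.1, 56 and 65.8 CPM with water and morphine, and 61.7, 61.1, 70, 65 and 64.7 CPM with antibiotics and saline. No library of either of these groups reached the lowest of the group with both treatments. Against water with morphine the rise was 1.23-fold (log2 0.29 ± 0.07, edgeR adjusted p = 0.00554). Against antibiotics with saline it was 1.2-fold (log2 0.26 ± 0.07, edgeR adjusted p = 0.0269), and it was no longer called without antibiotics with morphine replicate 2 or 3 or antibiotics with saline replicate 1 or 2, at edgeR adjusted p from 0.0506 to 0.0843. The interaction for Pde10a was 0.14 ± 0.10 on the log2 scale (edgeR adjusted p = 0.5).

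Across ages, Pde10a was the called gene of the 8. In adults with antibiotics and saline it read 75.3, 73.4, 82.2, 79 and 82.5 CPM, all above the 61.1 to 70 CPM of adolescents given the same. The adult level was 1.22-fold higher (log2 0.28 ± 0.07, edgeR adjusted p = 0.00977), and 1 of the 8 genes was called where 5.97% of all genes were. The call was lost with 3 surrogate variables (log2 0.16, edgeR adjusted p = 0.159) and with the mean level of oligodendrocyte markers as a covariate (log2 0.20, edgeR adjusted p = 0.0696). That comparison shares the adolescent antibiotics with saline libraries with the morphine comparison above. With water and saline the adult level of Pde10a was 68.1 ± 5.95 CPM against 57.9 ± 5.92 (log2 0.23 ± 0.07, edgeR adjusted p = 0.171), and with antibiotics and morphine 77.4 ± 3.18 against 77.3 ± 4.37.

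In adults the 8 genes gave no call in any comparison of treatments. Ppp1r1b read a mean of 46.7 ± 3.97 CPM with water and saline, 55.1 ± 4.75 with antibiotics and saline, 54.4 ± 3.59 with water and morphine and 64.3 ± 9.44 with both (SD, n = 5 each). With both treatments the 5 adult libraries read 48.5, 71.6, 66.3, 64.1 and 71.3 CPM, so that 4 lay above all 5 with water and morphine and replicate 1 lay below them. Each treatment was positive in each background, at log2 fold changes of 0.22 to 0.24 with edgeR adjusted p from 0.322 to 0.559, and the interaction was 0.00 (95% confidence interval -0.25 to 0.26). edgeR called 0 of the 8 genes for antibiotics in saline, morphine on water, morphine on antibiotics and antibiotics under morphine, beside 0.0503%, 0.475%, 0.213% and 0.028% of all genes. In that order, 2, 3, 2 and 2 of the 8 had an unadjusted edgeR p under 0.05, beside 1801, 1978, 1257 and 1434 of the 17880 genes tested. The adult interaction had 0 of 8 called, with 0% of all genes called. It had 0 of 8 at an unadjusted edgeR p under 0.05, beside 1214 of 17880 genes.

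The treatment effects were not shown to differ with age. For Ppp1r1b the antibiotics effect under morphine was smaller in adults by a log2 difference of -0.25 ± 0.12 (95% confidence interval -0.50 to 0.00, edgeR adjusted p = 0.874), and for Pde10a the morphine effect on antibiotics by -0.28 ± 0.10 (-0.48 to -0.08, edgeR adjusted p = 0.646). The 4 differences between ages called 0 of the 8 genes. They called 0.0224% of all genes for antibiotics in saline, 0% for morphine on water, 0% for morphine on antibiotics and 0.00559% for antibiotics under morphine. In that order, 0, 0, 1 and 1 of the 8 had an unadjusted edgeR p under 0.05, beside 1801, 1788, 1151 and 1010 of 17880 genes. The other comparisons of adults with adolescents called 0 of the 8 genes too, beside 0.257% of all genes with water and saline, 0.928% with water and morphine and 1.04% with antibiotics and morphine. Here 2, 1 and 1 of the 8 had an unadjusted edgeR p under 0.05, beside 1788, 2549 and 2643 of 17880 genes. DESeq2 and limma-voom likewise called 0 of the 8 genes in each of the 15 comparisons in which edgeR called 0.

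**Figure D3:**
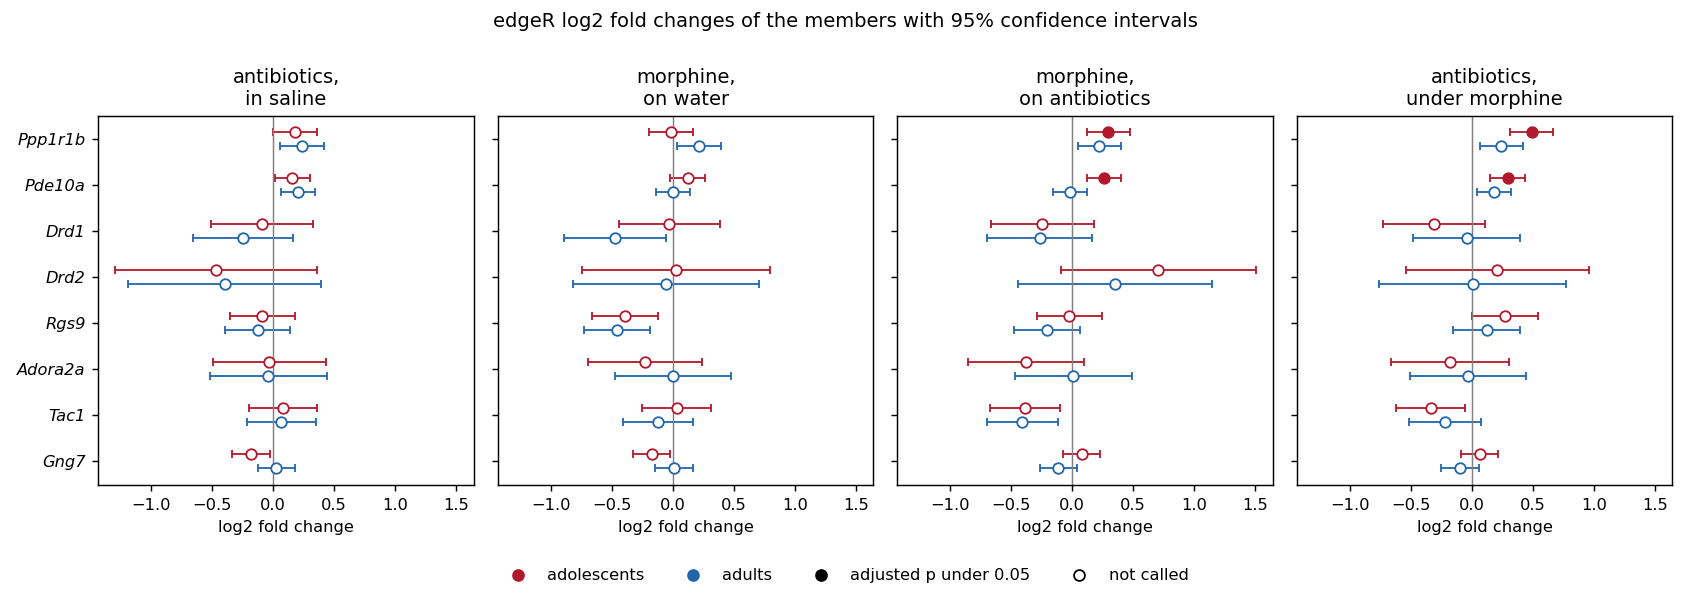
Log2 fold changes from edgeR with 95% confidence intervals for antibiotics in saline, morphine on water, morphine on antibiotics and antibiotics under morphine, in adolescents (red) and adults (blue); filled points passed an adjusted p of 0.05. Ppp1r1b and Pde10a in adolescents are filled in the last 2 panels, and the intervals of Drd2 and Adora2a are wide.

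The dopamine and adenosine receptor genes were called in no comparison. Drd1 had a mean of 8.4 CPM, and in adults it read 11.1, 11.3, 8.78, 7.54 and 12.3 CPM with water and saline and 8.12, 5.82, 9.1, 4.73 and 9.16 with water and morphine, with overlapping ranges (log2 -0.47 ± 0.21, edgeR adjusted p = 0.379). In adolescents the same comparison gave -0.03 ± 0.20 (edgeR adjusted p = 0.967). Under morphine, antibiotics moved Drd1 in adolescents by -0.31 on the log2 scale with an interval from -0.73 to 0.11, which is the opposite sign to Ppp1r1b. Drd2 ranged from 0.311 to 2.24 CPM within the adolescent group with both treatments alone. Its largest fold change, morphine against saline in adolescents on antibiotics, was 0.71 ± 0.40 on the log2 scale (SE, edgeR adjusted p = 0.38), so that at this depth changes of this size were not resolved. Adora2a read 1.58 to 4.95 CPM over all libraries, and the same comparison gave -0.38 (-0.86 to 0.10, edgeR adjusted p = 0.446).

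Rgs9 was lower after morphine on water at both ages without passing the adjusted threshold. In adults it read 15.5, 13.8, 15.2, 15.5 and 14.5 CPM with saline and 11.8, 11, 10.8, 9.67 and 11 with morphine. The adult groups did not overlap, and the log2 fold change was -0.46 ± 0.13 (0.728-fold, edgeR adjusted p = 0.116). It was called without a filter on low counts (edgeR adjusted p = 0.0326), in a fit of only the 2 groups (0.0256) and with 3 surrogate variables (0.0133). Under every other alternative, DESeq2, limma-voom and the marker covariates among them, it was not called. In adolescents the levels were 14.3 ± 2.48 and 10.9 ± 0.921 CPM (log2 -0.39 ± 0.13, edgeR adjusted p = 0.209), with overlap. On antibiotics, morphine gave -0.02 ± 0.13 in adolescents and -0.21 ± 0.13 in adults.

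Gng7 stayed between 68.3 and 110 CPM. Its highest group mean was adolescents with water and saline, at 98.1 ± 10.6 CPM, against 83.4 ± 7.68 in adults given the same (log2 -0.23 ± 0.08, edgeR adjusted p = 0.224). With antibiotics and morphine it read 86.9 to 97.6 CPM in adolescents and 68.3 to 84.7 in adults, without overlap (log2 -0.21 ± 0.08, edgeR adjusted p = 0.155). With 3 surrogate variables Gng7 was called for morphine in adolescents on antibiotics (log2 0.23, edgeR adjusted p = 0.0193) and for the adolescent interaction (log2 0.40, edgeR adjusted p = 0.0347). No other alternative called it.

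Tac1 had its lowest group mean with antibiotics and morphine at both ages. In adolescents it read 10.3, 8.73, 10.9, 7.72 and 11.5 CPM with both treatments and 12.2, 13.4, 15.9, 11.9 and 10.7 with antibiotics and saline, and in adults 8.45, 6.06, 9.89, 10.2 and 9.15 against 12.2, 10.9, 8.11, 14.3 and 12.6. The ranges overlapped at each age. The morphine effect on antibiotics was -0.39 ± 0.14 in adolescents (edgeR adjusted p = 0.134) and -0.41 ± 0.15 in adults (edgeR adjusted p = 0.456), so neither was called. Tac1 and Drd1, which mark the same striatal neurons, thus had signs opposite to the rise of Ppp1r1b and Pde10a in adolescents with both treatments, but without a call.

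The rest of the signalling pathway was counted in lists of its genes. Under morphine, antibiotics in adolescents lowered 2 of 21 tested dopamine receptor and G protein genes, Rgs2 (log2 -0.30, edgeR adjusted p = 0.0103) and Rgs7bp, which anchors proteins of the Rgs9 family (-0.26, edgeR adjusted p = 0.0304). Of 15 genes of cyclic AMP synthesis and breakdown, the adenylyl cyclase gene Adcy9 rose (0.26, edgeR adjusted p = 0.0438) and Adcy3 fell (-0.29, edgeR adjusted p = 0.0248). Of 25 kinases and phosphatases that act on DARPP-32 or are related to them, 3 fell: Prkar2b, a regulatory subunit of protein kinase A (-0.34, edgeR adjusted p = 0.00279), Arpp19, a phosphatase inhibitor (-0.27, edgeR adjusted p = 0.0128), and Ppp1cb, a catalytic subunit of the phosphatase that DARPP-32 inhibits (-0.19, edgeR adjusted p = 0.035). None of 8 tachykinin and adenosine partners was called by edgeR, with 2 at an unadjusted p under 0.05, beside 4120 of 17880 genes. The counts of called genes in these lists stand beside the 7.56% of all genes called in this comparison. The median log2 fold changes of these lists were -0.13, -0.08, -0.08 and -0.03, beside -0.01 over all genes and 0.14 over the 8 genes.

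Gnal encodes the alpha subunit that couples the receptor encoded by Drd1 to adenylyl cyclase in the striatum. In adolescents on antibiotics, morphine lowered 1 of 21 receptor and G protein genes, namely Gnal (-0.24, edgeR adjusted p = 0.0296). It raised Adcy9 (0.38, edgeR adjusted p = 0.00575), 1 of 15, and of 25 kinases and phosphatases it raised the casein kinase gene Csnk1e (0.21, edgeR adjusted p = 0.0202) and lowered Ppp1r1a, which encodes the phosphatase inhibitor most like DARPP-32 (-0.31, edgeR adjusted p = 0.0365). Ppp1r1a read 77.2 ± 5.55 CPM with saline and 62.4 ± 3.53 with morphine, so it fell where Ppp1r1b rose. Of all genes, 2.92% were called here. In the same comparison 6 of 16 immediate early genes were lower, with Arc at -1.42 (edgeR adjusted p = 0.000935), Jun at -0.51 and Btg2 at -0.99. Morphine on water lowered 6 of the 16 in adolescents and 10 in adults, and morphine on antibiotics in adults lowered 2. In those comparisons 0 of the 8 genes were called, beside 0.319%, 0.475% and 0.213% of all genes. The part of the immediate early genes in the result was not tested. Between ages with antibiotics and saline, Rgs4, Gnb2 and Gng13 of 21 were lower in adults, and Ppp1r1a and Ppp1ca of 25, where 5.97% of all genes were called.

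Marker lists of other cells give the setting of these changes. The 14 tested striatal markers outside the 8 genes had 0 called by edgeR in each of the 3 comparisons with calls. For antibiotics under morphine, morphine on antibiotics and age, 2, 2 and 1 of the 14 had an unadjusted edgeR p under 0.05. Of the 17880 genes tested, 4120, 2911 and 3613 did. The summed level of all 20 striatal markers, tested or not, was 521 to 590 CPM in adolescents with both treatments. It was 550 to 591 with water and morphine and 528 to 577 with antibiotics and saline, so the groups overlapped. Adcy5 and Pde1b have the largest part in these sums. Summed levels of 10 oligodendrocyte markers were 1404 to 2169 CPM with both treatments, 1305 to 1584 with water and morphine and 1187 to 1704 with antibiotics and saline. Of these 10 markers 9 had positive fold changes in either comparison, with 0 called by edgeR against water with morphine (2 at an unadjusted p under 0.05) and 1, Mal, against antibiotics with saline. Between ages with antibiotics and saline 1 of 10 was positive and Cldn11 was lower in adults. Against water with morphine, 2 of 8 astrocyte markers (Aqp4 and S100b), 1 of 8 microglia markers (C1qa), 1 of 8 excitatory neuron markers (Neurod6), 1 of 10 interneuron markers (Cck) and 1 of 11 upper-layer markers (Calb1) were lower. Against antibiotics with saline, 1 of 8 excitatory neuron markers (Nrn1) and 1 of 10 interneuron markers (Cck) were lower and 1 of 11 upper-layer markers (Cux2) was higher. Between ages with antibiotics and saline, 3 of 10 interneuron markers (Npy, Cck and Sst) and 1 of 8 excitatory neuron markers (Nrn1) were lower in adults. For antibiotics under morphine, morphine on antibiotics and age, 7.56%, 2.92% and 5.97% of all genes were called. In that order, 6, 6 and 5 of the 10 interneuron markers had positive fold changes, at median log2 values of 0.045, 0.023 and 0.026. Of the 8 excitatory neuron markers 2, 4 and 3 were positive, and of the 11 upper-layer markers 5, 7 and 7. Of the 8 astrocyte markers 1, 1 and 5 were positive, and of the 8 microglia markers 0, 0 and 3. The part of these markers in the result was not tested.

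With the mean level of the striatal markers as a covariate, the antibiotics effect under morphine in adolescents was 0.51 for Ppp1r1b (edgeR adjusted p = 0.000105) and 0.29 for Pde10a (edgeR adjusted p = 0.0067), about as large as without it. That covariate left out the markers with the lowest mean counts, namely Isl1, Six3, Drd3, Slc35d3, Sh3rf2, Ido1 and Cd4. The part of admixed striatal tissue in these effects was not tested. With the mean level of the oligodendrocyte markers as a covariate, the same effect was 0.38 for Ppp1r1b (edgeR adjusted p = 0.000316) and 0.35 for Pde10a (edgeR adjusted p = 0.000413). For morphine on antibiotics the oligodendrocyte covariate lowered Ppp1r1b from 0.30 to 0.18 (edgeR adjusted p = 0.147), and the striatal covariate lowered Pde10a from 0.26 to 0.22 (edgeR adjusted p = 0.105), so that each call was lost. Ppp1r1b shares 460 exon bases with the gene 1700003D09Rik on the opposite strand, and no source used here says whether counting was strand-specific, so its level is uncertain to that extent. 1700003D09Rik, chosen after its values were seen, itself read 20.5 ± 1.64 against 14.9 ± 1.42 CPM under morphine in adolescents (log2 0.47 ± 0.11, edgeR adjusted p = 0.00426).

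**Figure D4:**
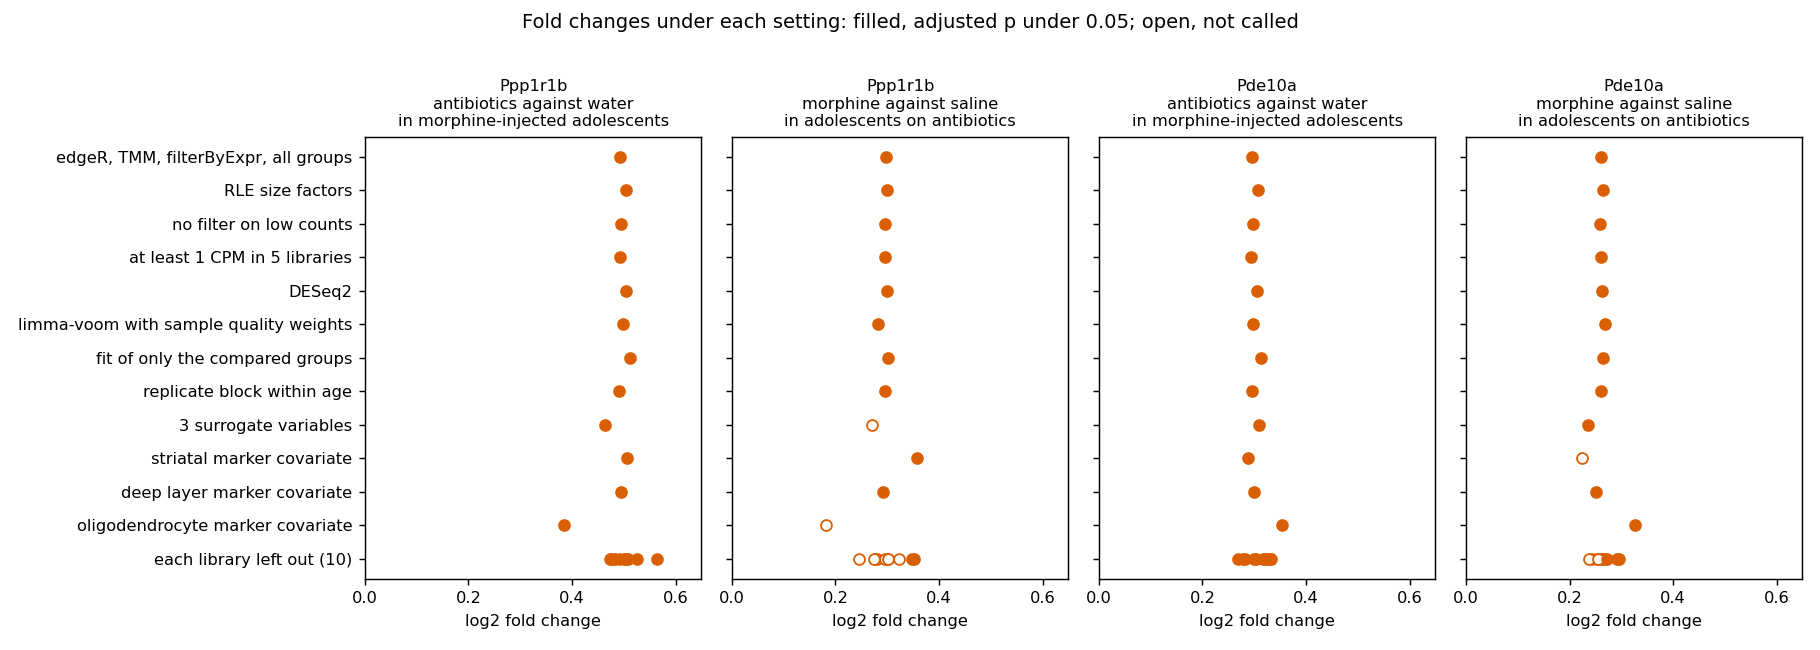
Log2 fold changes of Ppp1r1b and Pde10a in the 2 adolescent comparisons under each setting; filled points passed an adjusted p of 0.05. Antibiotics against water under morphine stays filled throughout, between 0.38 and 0.56 for Ppp1r1b, while morphine on antibiotics has open points under surrogate variables, marker covariates and single libraries left out.

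From library to library within groups no pair of the 8 genes passed a test of moving together. Over 40 libraries, deviations of log2 CPM from the group means were compared for 28 pairs of genes, and 0 passed a permutation test with Benjamini-Hochberg adjustment, by Pearson's or Spearman's coefficient. The median Pearson r was -0.05 and 13 of 28 pairs were positive. Ppp1r1b and Pde10a had r = -0.27 (rho = -0.28, permutation p = 0.102, adjusted p = 0.399). The highest value was that of Drd1 and Rgs9 (r = 0.53, rho = 0.34, permutation p = 0.00337, adjusted p = 0.0944, and r = 0.41 without the 2 farthest libraries).

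Against summed marker levels, 24 relations were computed in the same way and 8 passed by Pearson's r, those with oligodendrocyte and deep-layer markers having been added after the data were seen. Ppp1r1b followed the 10 oligodendrocyte markers (r = 0.72, rho = 0.68, permutation p = 3e-05, adjusted p = 0.00036, r = 0.64 without the 2 farthest libraries), with r = 0.64 over adolescent and 0.81 over adult libraries. Pde10a went the other way (r = -0.54, rho = -0.52, permutation p = 0.0002, adjusted p = 0.0016, r = -0.57 without the 2 farthest). Drd1 followed 14 deep-layer cortex markers (r = 0.72, rho = 0.77, permutation p = 2e-05, adjusted p = 0.00036, r = 0.67 without the 2 farthest), at r = 0.72 and 0.76 in the 2 ages. Rgs9 passed with them by Pearson's r only (r = 0.44, rho = 0.41, permutation p = 0.0083, adjusted p = 0.0285, Spearman adjusted p = 0.0519, r = 0.36 without the 2 farthest), and Gng7 was opposed to them (r = -0.53, rho = -0.51, permutation p = 0.00278, adjusted p = 0.0124, r = -0.49 without the 2 farthest).

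With the summed striatal markers, Drd1 and Rgs9 had negative relations (r = -0.53, rho = -0.55, permutation p = 0.00309, adjusted p = 0.0124; r = -0.59, rho = -0.52, permutation p = 0.0011, adjusted p = 0.0066), at r = -0.48 and -0.50 without the 2 farthest libraries. Adora2a had a positive one that passed by Pearson's r only (r = 0.44, rho = 0.41, permutation p = 0.0154, adjusted p = 0.0461, Spearman adjusted p = 0.0519, r = 0.44 without the 2 farthest), with r = 0.66 over adolescent and 0.16 over adult libraries. The relation of Ppp1r1b with them did not pass (r = 0.33, rho = 0.22, permutation p = 0.0749, adjusted p = 0.163, r = 0.22 without the 2 farthest). All these levels are shares of the same libraries, and the part of this in the relations was not tested.

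**Figure D5:**
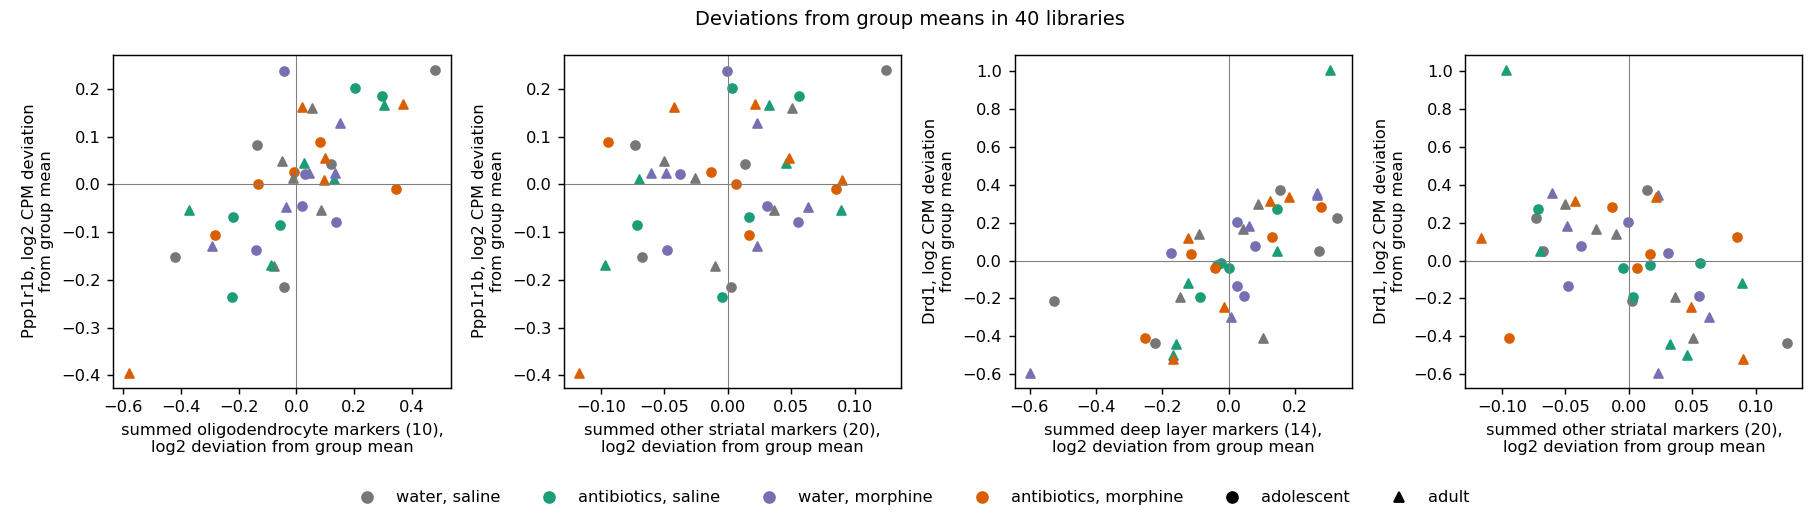
Each point is 1 of 40 libraries as its log2 deviation from its group mean, with Ppp1r1b against oligodendrocyte and striatal markers on the left and Drd1 against deep-layer and striatal markers on the right. Ppp1r1b rises with the oligodendrocyte markers (r = 0.72) and Drd1 with the deep-layer markers (r = 0.72), while Drd1 falls with the summed striatal markers (r = -0.53).

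Among 16678 other genes averaging 1 CPM or more, those whose deviations were most like Ppp1r1b were Tspan2 (r = 0.78), Mobp (0.74) and Fa2h (0.74), over 40 libraries. Tspan2, Mobp and Fa2h are genes of myelin-forming cells, and Mobp is also in the oligodendrocyte list. Pde10a was most like Atp2b4 (0.75), Ep400 (0.73) and Dop1a (0.69), Drd1 like Spon1 (0.72), Grik3 (0.72) and Pcdh17 (0.70), and Rgs9 like Ptpru (0.79), Ryr3 (0.73) and Zcchc2 (0.68). Gng7 was most like Flt1 (0.83), Fgf13 (0.81) and Slc1a3 (0.80). Of these, Flt1 is in the list of endothelium markers and Slc1a3 in the astrocyte list. Drd2 was most like Gm40518 (0.64) and the activity-regulated genes Nr4a3 (0.64) and Fosb (0.64), Adora2a like Gm20412 (0.70), Capn2 (0.62) and Stc1 (0.61), and Tac1 like Entpd2 (0.62), Tmem189 (0.59) and Gm19391 (0.55). These values are the highest of many and are given as a description.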

How the data were processed

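Raw, unnormalized read counts per gene were deposited by the authors for 40 libraries in 1 table. Per the submitters' processing notes, STAR 2.7.10a, DESeq2 (with no role given) and the build mm10 were used; no source used here gives the annotation release or the strandedness used. There were 0 rows lacking a gene and 0 columns lacking a sample. Identifiers were matched without version to GENCODE vM21 (52073, or 91.4%; 35 matched with version).

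Counts were analysed in R 4.3.3 with edgeR 4.0.16. Genes were kept by filterByExpr (minimum count 10, minimum total 15), which left 17880. After TMM scaling, 1 robust quasi-likelihood model with a coefficient per group was fitted to all 40 libraries. Each of 18 comparisons was a two-sided F test with Benjamini-Hochberg adjustment over all genes tested, called at 0.05. CPM are TMM-scaled. The biological coefficient of variation was 9.14%. Pairs of libraries in a group differed by a chi-square of 2.2 to 16.15 per gene, so none was treated as a duplicate. Limits at 3 counts cover counting error only. The script was tested on simulated data.

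Correlations used log2 CPM (0.5 counts added) as deviations from group means, with 100000 permutations within groups. Alternatives were RLE size factors, limma-voom with quality weights (limma 3.58.1), no filter, a filter of 1 CPM in 5 libraries, DESeq2 1.42.0, a fit of only the compared groups, a replicate block, 3 surrogate variables (sva 3.50.0), covariates from 3 marker lists, and each library left out. All 8 genes are named in the comparisons; of each other list, up to 3 called genes with the smallest p where any of the 8 was called, and for each of the 8 the 3 genes most like it. The genes, lists and tests were chosen with earlier results of these data known. The values of 1 marker gene are not reported here.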

Additional observations from a re-analysis of the deposited data

Results flagged for a closer look

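In groups of 5 libraries, the highest or lowest value was set against its nearest neighbour, over 64 sets of a gene in a group, and 3 stood apart by a gap of over 0.71 of the range of the group. Chance gives about 1 in 20. Pde10a in adults with water and saline was highest in replicate 4, at 78.43 CPM, with the next at 67.8. Drd1 in adults with antibiotics and saline was highest in replicate 4, at 15.99 CPM, with the next at 8.22, and in the same library Rgs9 had its highest value of all 40, at 18.8 CPM. Adora2a in adults with antibiotics and saline was lowest in replicate 1, at 1.859 CPM, with the next at 2.93.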

How the results depend on the processing

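Of 3497 fold changes of the 8 genes under the alternatives, 288 had the other sign, and 0 of those were called in either fit. Of 105 values called in the report and refitted, 17 were no longer called, and 5 were called only under an alternative. For antibiotics under morphine in adolescents both calls held under every alternative run here, but no number of surrogate variables other than 3 was tried. An earlier text on the whole series gave Pde10a as not called with surrogate variables in this comparison, and the difference was not traced. For morphine on antibiotics in adolescents the number called was 1 with the striatal covariate, 1 with the oligodendrocyte covariate, and 0 to 2 without single libraries. For the adolescent interaction it was 1 (Gng7) with 3 surrogate variables. For morphine on water in adults it was 1 (Rgs9) without a filter, 1 when the compared groups were fitted alone and 1 with 3 surrogate variables. For age with antibiotics and saline it was 0 with 3 surrogate variables (Pde10a, log2 0.16, edgeR adjusted p = 0.159) and 0 with the oligodendrocyte covariate. With surrogate variables Ppp1r1b was not called for morphine on antibiotics in adolescents (log2 0.27, edgeR adjusted p = 0.103). The cause of these changes was not tested. Without the 2 farthest libraries 1 of 28 pairs of genes passed, Drd2 and Rgs9 (r = 0.50, rho = 0.46, permutation p = 0.00131, adjusted p = 0.0367).

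Replicate numbers did not pair the libraries: same-numbered libraries of different groups correlated at -0.145 to 0.111 in adolescents and -0.0568 to 0.185 in adults, and 10 of 40 correlated best with their own number. With the replicate block, 2, 2 and 1 of the 8 genes were called in the comparisons with calls, as without it, and 0 in the others. Depth limits Drd2 and Adora2a, with 3 to 21 and 15 to 48 counts.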
